A study of Arabidopsis thaliana with 12 samples.

Results

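Hyperphyllin was compared with its solvent in seedlings of the mutant amp1-13, with 3 arrays per group, which are 6 of the 12 arrays of the study. The 6 arrays were taken by their labelled genotype and treatment, and the comparison was fitted on them alone. The tested seedlings were amp1-13 grown for 10 d with 30 µM hyperphyllin, and the control was amp1-13 grown for 10 d with the solvent dimethyl sulfoxide (DMSO). The other 6 arrays hold wild type with 30 µM hyperphyllin and wild type with DMSO. Every group was in the Col-0 background, was grown in liquid medium with sucrose, and contained DMSO at 1%, so the solvent was shared by treated and control seedlings. RNA came from whole seedlings, and the labels call the 3 samples of a group biological replicates. In such samples fewer cells of a type and less RNA per cell cannot be told apart. The mutant stands for 1 allele, whose lesion is not given in the sources used here, and the compound for 1 dose present from germination on.

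AMP1 (ALTERED MERISTEM PROGRAM 1) is a membrane protein of the endoplasmic reticulum that resembles glutamate carboxypeptidases. Plants that lack it have an enlarged shoot meristem, form leaves faster and contain more cytokinin. Hyperphyllin is a synthetic compound under which wild-type seedlings take on amp1-like features, and the comparison asks what it does to transcripts where AMP1 is already mutated. The AMP1 transcript was not analysed here and could not serve as a check of the genotype. Its homologue LAMP1 (AT5G19740) had 5.08, 5.03 and 5.22 in amp1-13 with hyperphyllin, against 5.27, 5.35 and 5.36 with DMSO (log2 expression, arrays 1 to 3). The groups did not overlap, but the difference of -0.22 ± 0.10 did not pass the test (limma adjusted p = 0.472). CYP78A9, a relative of the cytochrome P450 genes that restrain leaf initiation, differed by -0.04 ± 0.14 (adjusted p = 0.967) and its arrays overlapped.

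The values were log2 expression values of 38408 probe sets. Of these, 16746 (43.6%) were annotated with exactly 1 gene and were tested, and they stood for 16552 genes. The array medians over the tested probe sets lay between 4.10 and 4.13, and Pearson correlations between the 6 arrays between 0.987 and 0.995. Principal component 1 (33.0% of the variance) set DMSO array 2 apart, at 28.55 against -12.58 to 7.82 for the other 5 arrays. Component 2 (28.6%) separated the groups, with hyperphyllin arrays at 23.85, 7.91 and 3.41 and DMSO arrays at -15.59, -8.09 and -11.49. Markers of both shoot and root were measured, at a median level of 8.78 over 12 photosynthesis genes and of 7.53 over 6 root genes. Seed and flower markers had median levels of 2.49 over 5 genes and 2.01 over 8 genes.

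Few genes passed the test. With hyperphyllin 36 genes changed in amp1-13, which is 0.215% of the probe sets tested. Of these, 14 rose (0.0836%) and 22 fell (0.131%). The genes that rose were led by neighbouring glutaredoxin genes of chromosome 4, and those that fell by DFR, which encodes dihydroflavonol reductase of anthocyanin synthesis, and UGT72E2, which encodes a glucosyltransferase of lignin precursors. The log2 differences of the risen genes ran between 0.65 and 2.08 (median 1.02), and those of the fallen genes between -0.72 and -1.33 (median -0.93). At least 2-fold changes were seen in 15 genes (0.0896%), 7 of them higher and 8 lower. Of the 36 genes, 5 carried a symbol (PDF1.4, YUC4, DFR, UGT72E2 and scpl28) and 31 a locus code only, so the function of most is not stated here.

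The calls lay close to the threshold. The adjusted p was 0.0196 for the glutaredoxin genes AT4G15660 and AT4G15700 and between 0.0454 and 0.0487 for the other 34, while the next gene, AT4G33040, was at 0.0514 and 68 genes in all lay between 0.05 and 0.1. An unadjusted p under 0.05 was reached by 1793 of 16552 genes (10.8%), 773 with higher means (4.67%) and 1020 with lower means (6.16%). The hyperphyllin and DMSO arrays did not overlap for any of the 36 called genes. The same was true of 8.15% of all probe sets in the higher direction and of 8.65% in the lower direction. No gene stayed called when DMSO array 1, 2 or 3 or hyperphyllin array 2 was left out. Without hyperphyllin array 1, 3 genes were called, 2 of them among the 36. Without hyperphyllin array 3, 8 genes were called, 4 of them among the 36. When all 38408 probe sets were tested together, 0 were called (lowest adjusted p = 0.15, with 3617 at an unadjusted p under 0.05). When the 6 arrays were quantile normalized again, 14 genes were called, 7 higher and 7 lower.

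Glutaredoxins are small proteins that reduce disulfides or bind iron-sulfur clusters, and the CC-type, found in land plants, is known for binding TGA transcription factors. AT4G15660, AT4G15670, AT4G15680, AT4G15690 and AT4G15700 belong to this type and follow each other on chromosome 4. AT4G15700 had log2 values of 5.60, 5.09 and 5.15 on the hyperphyllin arrays, against 3.28, 2.90 and 3.42 on the DMSO arrays. AT4G15660 had 4.68, 4.41 and 4.12 with hyperphyllin, against 2.09, 2.53 and 2.40 with DMSO. In AT4G15680 the values were 5.72, 5.47 and 5.07 with hyperphyllin, against 3.07, 3.52 and 3.90 with DMSO. In each of these genes every treated array lay more than 1 log2 unit above every control array. The differences were 2.08 ± 0.18 for AT4G15700 (log2, SE, 3 arrays per group), 2.06 ± 0.17 for AT4G15660 and 1.93 ± 0.23 for AT4G15680, or 4.23-fold, 4.18-fold and 3.8-fold. The limma adjusted p was 0.0196 for AT4G15700 and AT4G15660 and 0.0454 for AT4G15680.

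The other members of the run did not pass the test. AT4G15670 had 5.14, 3.81 and 4.83 with hyperphyllin, against 2.70, 2.99 and 3.23 with DMSO, a difference of 1.62 ± 0.31 (adjusted p = 0.107). AT4G15690 had 3.99, 3.60 and 2.85 with hyperphyllin, against 1.96, 1.98 and 2.11 with DMSO, a difference of 1.47 ± 0.25 (adjusted p = 0.078). Neither overlapped between the groups, and in both the 3 treated arrays were spread over more than 1 log2 unit. The 5 genes are close paralogues, and it was not tested how far a probe set of one also reads the others, so their separate values are uncertain. With each array left out in turn, the difference of AT4G15700 ran between 1.92 and 2.19 and that of AT4G15660 between 1.93 and 2.20. No other called genes lay within 5 coding genes of each other.

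Outside the run, the CC-type gene AT5G18600 of chromosome 5 also rose. Its values were 6.76, 6.66 and 6.47 with hyperphyllin, against 5.42, 5.40 and 5.75 with DMSO, a difference of 1.10 ± 0.13 (adjusted p = 0.0454). Of 21 genes written in the list of CC-type glutaredoxins, 20 were measured, 4 rose and 0 fell. By unadjusted p under 0.05 the list divided. Higher means were seen in 8 members (40.0%, against 4.67% of all genes) and lower means in 5 (25.0%, against 6.16%). The 8 include the 5 genes of the run, whose probe sets may read each other. Several members were low, against a median of 4.12 over all values. AT2G47880, AT3G62960 and AT5G11930 of the lower members had means of 2.09, 2.43 and 2.55. AT4G15690, AT3G62930 and AT3G21460 of the higher members had 2.75, 2.70 and 2.71. The median difference of the list was 0.07, against -0.0014 over all genes. AT4G33040 was at -0.67 ± 0.10 (adjusted p = 0.0514) and AT1G03020 at -0.69 ± 0.17 (adjusted p = 0.174), each with every treated array below every control array. AT3G62930 was at 0.70 ± 0.12 (adjusted p = 0.078). ROXY1 and ROXY2, which act in flower and anther development, were at 0.14 ± 0.13 and -0.00 ± 0.11.

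**Figure D1:**
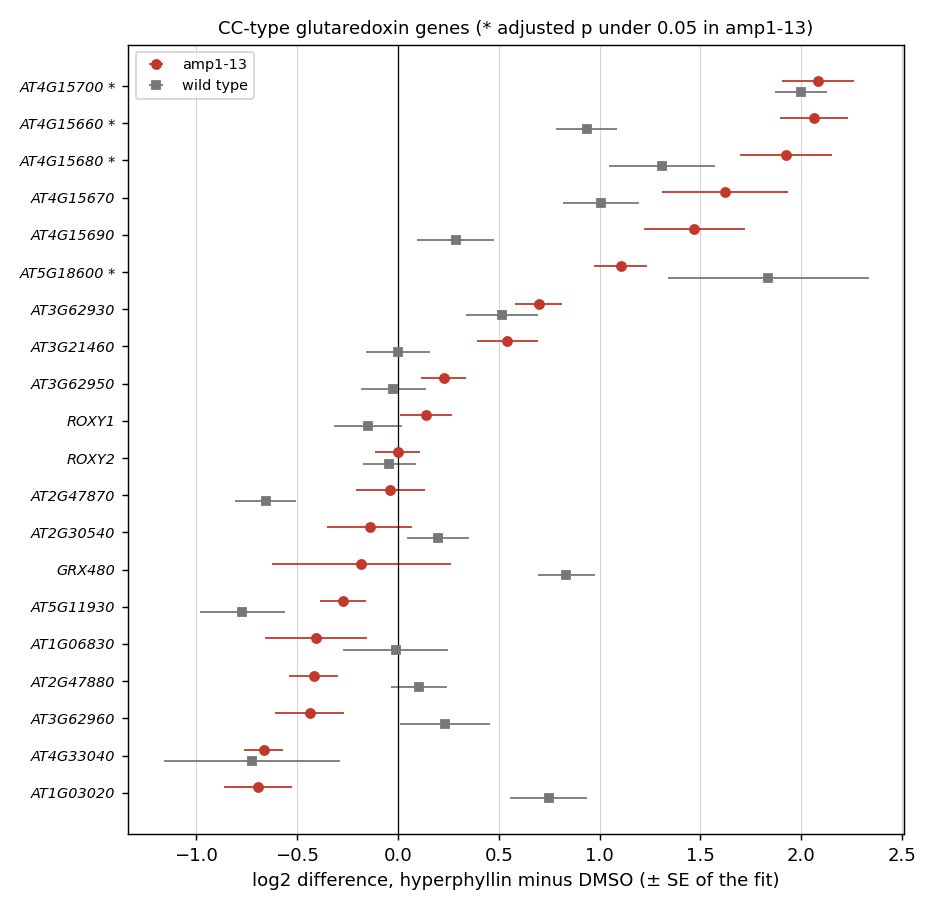
Log2 difference between hyperphyllin and DMSO (x axis, ± SE of the fit, 3 arrays per group) for the 20 measured CC-type glutaredoxin genes, in amp1-13 (circles) and in wild type (squares), ordered by the amp1-13 value. The 5 genes of the chromosome 4 run stand at the top, between 1.47 and 2.08 in amp1-13, and 10 of the 20 genes lie below 0 there.

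Among the other risen genes, PDF1.4 encodes a small cysteine-rich peptide of the plant defensin family. It had 4.58, 4.39 and 3.92 with hyperphyllin, against 3.22, 2.76 and 2.62 with DMSO, a difference of 1.43 ± 0.21 (adjusted p = 0.0487). YUC4, a flavin monooxygenase that makes auxin in young shoot organs, had 4.57, 4.37 and 4.30 with hyperphyllin, against 3.57, 3.41 and 3.51 with DMSO, a difference of 0.91 ± 0.11 (adjusted p = 0.0454). The treated arrays stood above all control arrays for both genes, by at least 0.70 for each. PDF1.4 was called only narrowly, being the gene with the highest adjusted p of the 36.

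The remaining risen genes carried a locus code only. AT5G62720 had 5.22, 5.92 and 5.17 with hyperphyllin, against 3.89, 3.98 and 4.11 with DMSO, and differed by 1.44 ± 0.20. AT4G29905 had 6.05, 6.24 and 6.10 with hyperphyllin, against 4.75, 5.06 and 5.28 with DMSO, and differed by 1.10 ± 0.14. AT4G12900 had 7.25, 7.19 and 7.46 with hyperphyllin, against 6.46, 6.24 and 6.39 with DMSO, and differed by 0.93 ± 0.11. AT5G62720 was highest on hyperphyllin array 2, while the 3 treated arrays of AT4G29905 and AT4G12900 lay within 0.3 of each other. The others were AT1G62510 (0.90 ± 0.11), AT1G19530 (0.89 ± 0.12), AT5G51390 (0.84 ± 0.11), AT1G23390 (0.71 ± 0.10) and AT2G37660 (0.65 ± 0.09), all with an adjusted p between 0.0454 and 0.0487.

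**Figure D2:**
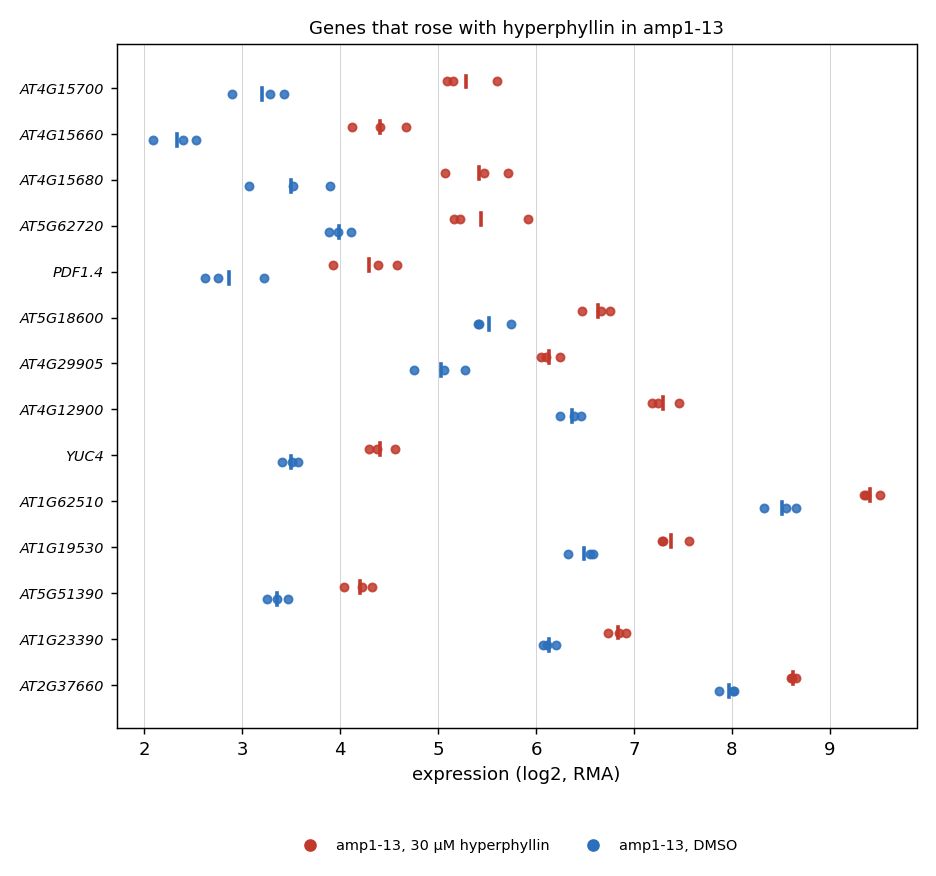
Log2 expression (x axis) of the 14 genes that rose, on each amp1-13 array with 30 µM hyperphyllin (upper points of each row) and with DMSO (lower points), with a bar at each group's mean (3 arrays). Rows are ordered by the difference, 2.08 at the top and 0.65 at the bottom, and in every row the treated arrays lie to the right of the control arrays.

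DFR and UGT72E2 led the 22 genes that fell. DFR had 5.78, 5.87 and 5.76 with hyperphyllin, against 6.83, 7.53 and 7.04 with DMSO, and fell by 1.33 on the log2 scale (-1.33 ± 0.17, 2.51-fold, adjusted p = 0.0454). UGT72E2 had 5.17, 5.19 and 5.53 with hyperphyllin, against 6.75, 6.43 and 6.51 with DMSO, and fell by 1.27 (-1.27 ± 0.14, 2.41-fold, adjusted p = 0.0454). The treated DFR arrays were within 0.12 of each other, whereas its control arrays spread over 0.71, with DMSO array 2 the highest. DFR reduces dihydroflavonols on the way to anthocyanins, and UGT72E2 attaches glucose to monolignols.

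AT2G41090, which encodes a calmodulin-like calcium-binding protein, had 8.04, 7.90 and 7.97 with hyperphyllin, against 8.92, 9.003 and 8.70 with DMSO, and fell by 0.91 on the log2 scale (-0.91 ± 0.11, adjusted p = 0.0454). The serine carboxypeptidase-like gene scpl28 had 5.08, 5.20 and 5.33 with hyperphyllin, against 5.98, 5.95 and 6.04 with DMSO, and fell by 0.79 (-0.79 ± 0.10, adjusted p = 0.0454). In both genes every treated array was below every control array.

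Locus codes only were given for the others that fell. AT3G46490 had 4.48, 5.08 and 4.75 with hyperphyllin, against 6.18, 6.14 and 5.74 with DMSO, a difference of -1.25 ± 0.18. AT3G16530 had 5.32, 5.24 and 5.60 with hyperphyllin, against 6.38, 6.93 and 6.41 with DMSO, a difference of -1.19 ± 0.17. AT1G34060 had 5.27, 4.94 and 5.62 with hyperphyllin, against 6.47, 6.37 and 6.48 with DMSO, a difference of -1.16 ± 0.16. No treated array of these genes reached the lowest control array. The falls of AT2G38823 (-1.13 ± 0.14), AT3G10320 (-1.05 ± 0.13) and AT4G00910 (-1.03 ± 0.14) also exceeded 2-fold. Smaller falls were measured for AT1G51805 (-0.98 ± 0.13), AT3G19430 (-0.97 ± 0.14), AT5G35480 (-0.95 ± 0.12), AT3G29410 (-0.87 ± 0.12), AT1G68600 (-0.86 ± 0.11) and AT4G09750 (-0.85 ± 0.11). The 7 called genes beyond these 15 largest falls, among them scpl28, lay between -0.82 and -0.72. The mean of 10 of the 36 called genes was below 4.12, the median of all values on the 6 arrays.

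**Figure D3:**
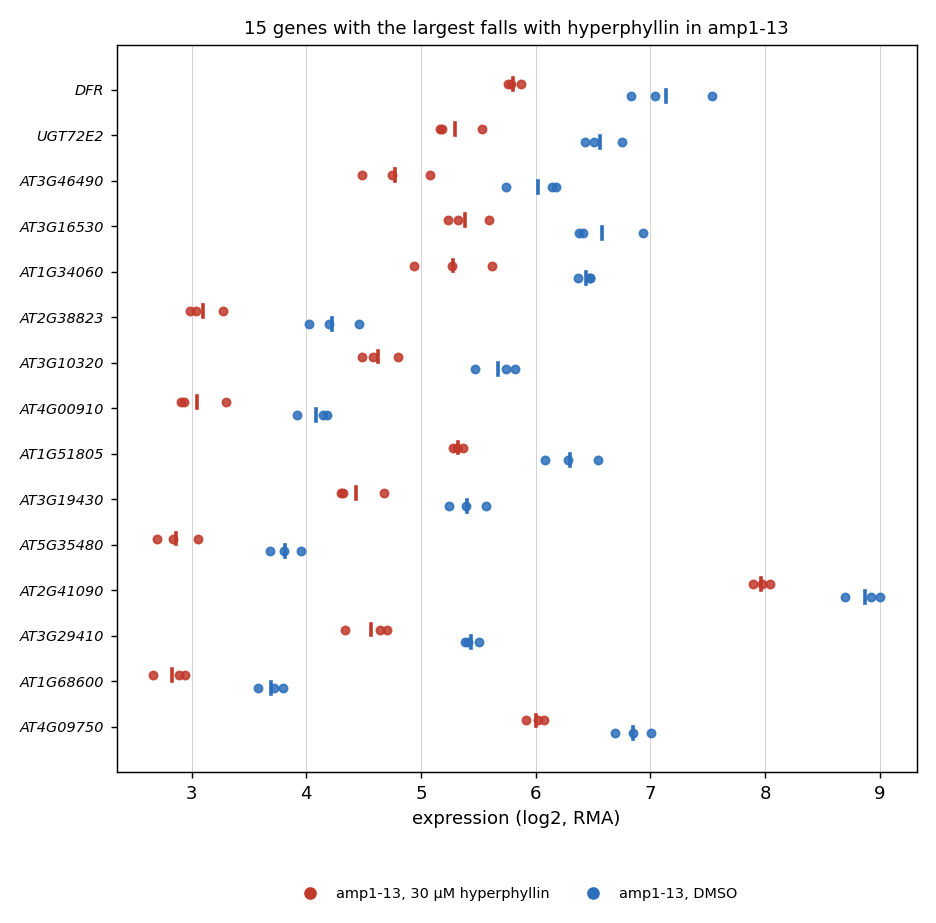
Log2 expression (x axis) of the 15 genes with the largest falls, on each amp1-13 array with 30 µM hyperphyllin (upper points of each row) and with DMSO (lower points), with a bar at each group's mean (3 arrays). Rows are ordered by the difference, -1.33 at the top and -0.85 at the bottom, and in every row the treated arrays lie to the left of the control arrays.

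The genes of shoot development were followed through lists of pathway and marker genes. These lists were measured only in part, with 5 of 35 meristem, 7 of 63 cytokinin, 9 of 76 cell division and 12 of 72 photosynthesis loci. A list without calls therefore speaks for its measured members only. Over all 16552 genes, 8201 had higher and 8351 had lower means, which is the background for the counts of means below. The auxin list had 18 measured members, of which YUC4 rose, 0 fell and 13 had higher means, with a median difference of 0.17. YUC6, another auxin synthesis gene, was at -0.40 ± 0.12 (adjusted p = 0.274), and GH3.3, which conjugates auxin to amino acids, at 0.63 ± 0.30 (adjusted p = 0.505) with overlapping groups. CLV3, the signal peptide that limits the stem cells of the shoot meristem, had 3.74, 3.18 and 3.32 with hyperphyllin, against 2.20, 2.55 and 2.37 with DMSO. All treated arrays were above all control arrays, at a difference of 1.04 ± 0.16 that missed the threshold (adjusted p = 0.0697). The mean of CLV3 over the amp1-13 arrays was low, at 2.89 against a median of 4.12 over all values. The other 4 measured meristem genes had higher means too, ULT1 at 0.15 ± 0.10, LAS at 0.15 ± 0.10 and PHV at 0.17 ± 0.14 among them, and 0 of the 5 passed. All 5 measured genes of leaf identity and phase had higher means and 0 passed, with YAB2, a gene of the lower leaf side, at 0.34 ± 0.11 (adjusted p = 0.281).

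Cytokinin genes gave no call among 7 measured, and none reached an unadjusted p under 0.05. RR16, a response regulator, was at 0.47 ± 0.30 with overlapping groups. Of 9 cell division genes 0 passed. AUR1, the Aurora kinase, was at 0.32 ± 0.10 and PRL, a subunit of the replicative helicase, at 0.31 ± 0.13, both with separate groups. These 2 were higher at an unadjusted p under 0.05 (22.2%, against 4.67% of all genes), and 0 were lower. The 4 stomatal genes and the 12 photosynthesis genes had neither a call nor an unadjusted p under 0.05. SPCH, which starts the stomatal lineage, was at -0.17 ± 0.21, and PORB of chlorophyll synthesis at 0.31 ± 0.15. The 63 measured genes of the chloroplast genome lay between -0.33 and 0.20, with a median of 0.02 and 0 calls.

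Metabolic lists had more lower than higher means and few calls. Among 31 detoxification genes UGT72E2 fell and 0 rose, 8 had lower means at an unadjusted p under 0.05 (25.8%, against 6.16% of all genes) and 1 a higher mean (3.23%, against 4.67%), and the list median was -0.13. The glutathione transferase gene GSTU25 was at -0.75 ± 0.15 (adjusted p = 0.115) and UGT85A2 at -0.40 ± 0.09 (adjusted p = 0.147). Of 7 flavonoid genes DFR fell and 0 rose, and 6 had lower means, with UGT78D1, a flavonol rhamnosyltransferase, at -0.28 ± 0.11 (adjusted p = 0.397). The list median was -0.16. Among 12 genes of sugar and starch none passed. APL3, a subunit of the enzyme that makes ADP-glucose, was at -0.64 ± 0.12 (adjusted p = 0.107), the sugar transporter genes SFP1 at -0.69 ± 0.14 and SWEET1 at -0.58 ± 0.13, and DPE1 of starch breakdown at 0.39 ± 0.10.

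Cell wall genes had no call among 36 measured, with 5 higher (13.9%, against 4.67% of all genes) and 6 lower (16.7%, against 6.16%) at an unadjusted p under 0.05. EXLA2, an expansin-like gene, was at 0.66 ± 0.12 (adjusted p = 0.0837). The xyloglucan-modifying genes XTH19 and XTH33 were at 0.73 ± 0.18 and 0.57 ± 0.13, while XTH21 was at -0.49 ± 0.10. Of 38 subtilase and serine carboxypeptidase-like genes scpl28 fell and 0 rose, with 19 means higher and 19 lower. Of 7 calmodulin-like genes AT2G41090 fell, 0 rose and 6 had lower means, and of 13 jasmonate genes PDF1.4 rose and 0 fell.

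Endoplasmic reticulum chaperones gave 0 calls among 7 genes of the unfolded protein response. ERDJ3B was at -0.38 ± 0.11 (adjusted p = 0.249), BIP1 at -0.37 ± 0.15 and the derlin gene DER1 at -0.24 ± 0.10. At an unadjusted p under 0.05, 3 of the 7 were lower (42.9%, against 6.16% of all genes) and 0 higher. The 4 heat shock genes all had lower means and 0 passed, with ROF2 (AT5G48570) at -0.68 ± 0.18 (adjusted p = 0.211). Of these 4, 2 were lower at an unadjusted p under 0.05 (50.0%, against 6.16%). BIM1, a partner of brassinosteroid-responsive factors, had 9.54, 9.55 and 9.64 with hyperphyllin, against 10.35, 10.06 and 10.32 with DMSO. Its groups were separate and its difference of -0.67 ± 0.11 missed the threshold (adjusted p = 0.0743). The 6 root markers all had lower means, between -0.37 and -0.02, and none reached an unadjusted p under 0.05. Of 8 flower markers and 5 seed markers 0 passed, with medians of -0.003 and -0.02. None of the 7 genes of abscisic acid (median 0.01), 3 of ethylene (0.08), 3 of iron (0.03), 4 of redox defence (0.01), 7 stress regulators (-0.10), 6 of sulphur and glucosinolates (-0.25) and 5 of gibberellin and brassinosteroids (-0.02) passed. The clock gene GI, the nitrate transporter gene NRT2.5 and SAG101 of defence, the lone measured members of their lists, were at 0.26 ± 0.12, 0.05 ± 0.19 and -0.06 ± 0.21 without passing. Whether a change in the share of root or shoot tissue moved with the called genes was not tested.

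The same contrast in wild type was fitted on its own 6 arrays to show where amp1-13 differed. DMSO array 1 of wild type stood apart: its mean correlation with the other DMSO arrays of wild type was 0.972, and with the arrays of the other groups 0.987. Single-gene wild-type differences in the text are given with and without it, and the plots use all 12 arrays. In amp1-13 36 probe sets passed the test, against 194 (1.16%) in wild type with that array and 2298 (13.7%) without it. The median residual standard deviation was 0.147 in amp1-13 and 0.174 in wild type, or 0.136 in wild type without that array. The 95% interval of a median probe set reached 0.275 to either side in amp1-13. A difference of at least 2-fold, at any p, was seen for 29 probe sets in amp1-13 and for 295 in wild type, or 651 without that array. Leaving out DMSO array 2 or 3 of wild type instead gave 31 or 48 calls in wild type. Leaving out hyperphyllin array 1, 2 or 3 of wild type gave 0, 0 or 66.

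Most of the genes called in amp1-13 had the same sign in wild type. This was so for 33 of 36 (91.7%), against 57.6% of all probe sets tested. Among the risen it was 13 of 14 (92.9%), against 48% of all probe sets with higher means in amp1-13. Among the fallen it was 20 of 22 (90.9%), against 66.9% of all probe sets with lower means. Without DMSO array 1 of wild type it was 33 of 36 with other members, against 59.2%. By direction it was then 14 of 14 risen, against 51.9%, and 19 of 22 fallen (86.4%), against 66.5%. YUC4 then had the same sign in both genotypes and AT5G35480 opposite signs (0.11 ± 0.12 in wild type). Called in both genotypes were AT4G15660, AT4G15700, AT4G12900, PDF1.4 and AT1G34060, which are 5 genes or 13.9% of the amp1-13 calls and 2.58% of the wild-type calls, all with the same sign. Without that array the shared genes were 24, or 66.7% of the amp1-13 calls and 1.04% of the wild-type calls. The risen genes had a median of 0.96 in wild type (1.20 without that array), and the fallen genes -0.38 (-0.76 without it).

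**Figure D4:**
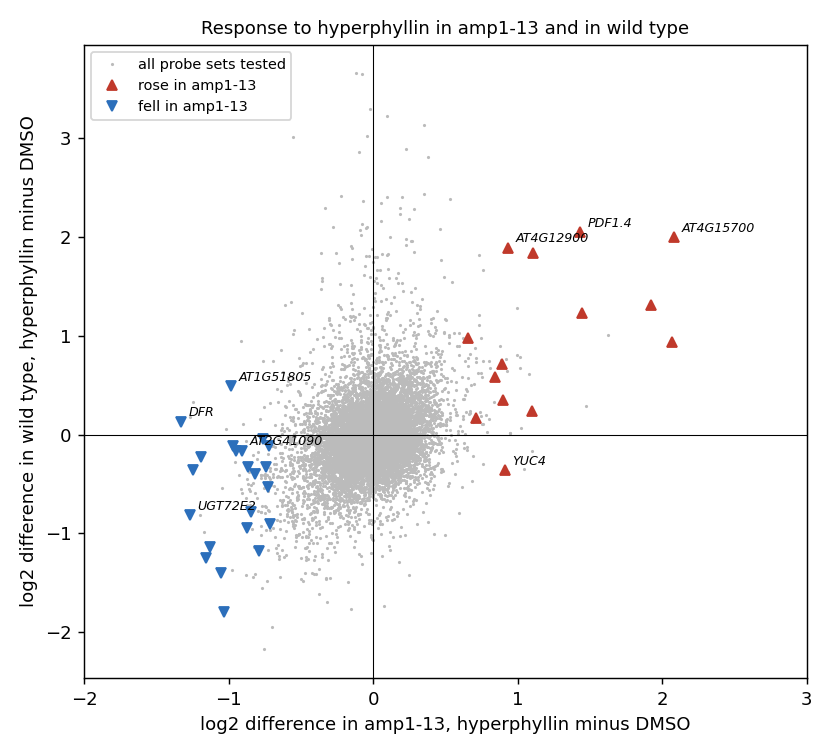
Log2 difference between hyperphyllin and DMSO in amp1-13 (x axis) and in wild type (y axis), each from its own 6 arrays, for the 16746 probe sets tested (grey points), with the 14 risen and 22 fallen genes of amp1-13 as triangles. Of the triangles, 33 lie on the same side of 0 in both genotypes, and DFR, AT1G51805 and YUC4 do not; without DMSO array 1 of wild type the exceptions are DFR, AT1G51805 and AT5G35480.

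The difference between the genotypes was tested as the interaction of genotype and treatment on all 12 arrays. It gave 0 calls (0.0%) with limma, with a lowest adjusted p of 0.122 and 1386 probe sets (8.28%) at an unadjusted p under 0.05. Without DMSO array 1 of wild type 464 probe sets (2.77%) were called, 230 higher and 234 lower. With any other single array left out 0 were called. Of the 36 called genes, 15 had an unadjusted interaction p under 0.05 on all 12 arrays, and 9 passed without DMSO array 1 of wild type. The 36 had been chosen on the amp1-13 arrays that enter the interaction, so these counts are a description. The 9 include AT4G00910, AT4G12900 and AT2G37660, whose differences were larger in wild type. These were -1.80, 1.89 and 0.98 there, or -2.999, 2.05 and 1.39 without that array, against -1.03, 0.93 and 0.65 in amp1-13. Without it their interactions were 1.96, -1.12 and -0.74 (adjusted p = 0.00403, 0.0177 and 0.0203). AT5G35480 also passed (-1.06, adjusted p = 0.012), and the others are described below.

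DFR fell in amp1-13, while in wild type its mean was higher with hyperphyllin without passing the test. The limma adjusted p in wild type was 0.896, or 0.314 without DMSO array 1. Its wild-type values were 6.67, 5.77 and 5.78 with hyperphyllin, against 6.60, 5.62 and 5.60 with DMSO, with array 1 high in both groups. The wild-type difference was 0.13 ± 0.34, or 0.46 ± 0.26 without DMSO array 1, and the interaction was -1.46 ± 0.42 (unadjusted p = 0.00455, adjusted p = 0.389). With array 1 of the wild-type controls left out, the interaction was -1.79 ± 0.34 (adjusted p = 0.0203), in a fit that drops the high control and keeps the high treated array. The treated amp1-13 arrays lay within the wild-type range, and the amp1-13 controls above it.

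AT2G41090 had 8.68, 8.71 and 8.77 in wild type with hyperphyllin, against 8.83, 8.91 and 8.91 with DMSO, so that only the treated amp1-13 arrays of the 12 lay below 8.5. Its wild-type difference was -0.16 ± 0.10, or -0.19 ± 0.10 without array 1 of the controls. The interaction was -0.74 ± 0.14 (unadjusted p = 0.000181, adjusted p = 0.27), and -0.72 ± 0.15 without array 1 of the wild-type controls (adjusted p = 0.0246). AT1G51805 had 7.02, 7.33 and 7.35 in wild type with hyperphyllin, against 6.001, 7.19 and 7.04 with DMSO, a difference of 0.49 ± 0.30, or 0.12 ± 0.14 without that array. Its interaction was -1.47 ± 0.35 (adjusted p = 0.284), and -1.10 ± 0.19 without that array (adjusted p = 0.0153).

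YUC4 and CLV3 had wild-type differences that rested on DMSO array 1. YUC4 had 2.70, 3.17 and 2.75 in wild type with hyperphyllin, against 4.41, 2.61 and 2.67 with DMSO. CLV3 had 1.71, 1.91 and 2.15 in wild type with hyperphyllin, against 3.02, 1.98 and 1.80 with DMSO. In both genes the first of the 3 DMSO arrays was the highest wild-type array and the other 2 lay within or near the treated range. The wild-type difference of YUC4 was -0.36 ± 0.46, or 0.23 ± 0.16 without that array, and that of CLV3 was -0.34 ± 0.31, or 0.03 ± 0.15 without it. The interaction was 1.27 ± 0.52 for YUC4 (adjusted p = 0.549) and 1.38 ± 0.38 for CLV3 (adjusted p = 0.361), and without that array 0.68 ± 0.19 (adjusted p = 0.0895) and 1.01 ± 0.24 (adjusted p = 0.0479).

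In the glutaredoxin run, AT4G15700 differed by 1.999 ± 0.13 in wild type, or 2.09 ± 0.12 without array 1 of the controls, both close to its amp1-13 value, and its interaction was 0.08 ± 0.24 (adjusted p = 0.951). AT4G15660 differed by 0.94 ± 0.15 in wild type, or 1.004 ± 0.15 without that array, with an interaction of 1.13 ± 0.24 (adjusted p = 0.27) and of 1.06 ± 0.25 without array 1 of the wild-type controls (adjusted p = 0.0452). In AT5G18600 the wild-type difference was 1.84 ± 0.50 and did not pass (adjusted p = 0.169), while without that array, which was the highest control, it was 2.49 ± 0.12 and passed (adjusted p = 4.17e-05). The gene had an interaction of -0.73 ± 0.56 (adjusted p = 0.772) and of -1.39 ± 0.18 without that array (adjusted p = 0.00454). PDF1.4 had 4.95, 4.98 and 4.74 in wild type with hyperphyllin, against 3.24, 2.63 and 2.65 with DMSO. Its wild-type difference was 2.05 ± 0.18, or 2.25 ± 0.12 without that array. The interaction of PDF1.4 was -0.62 ± 0.30 (adjusted p = 0.623), or -0.81 ± 0.27 without that array (adjusted p = 0.153). UGT72E2 had 5.37, 5.84 and 5.88 in wild type with hyperphyllin, against 5.16, 7.14 and 7.24 with DMSO. Its wild-type difference was -0.82 ± 0.52 (adjusted p = 0.529), or -1.49 ± 0.17 without that array (adjusted p = 0.00127).

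**Figure D5:**
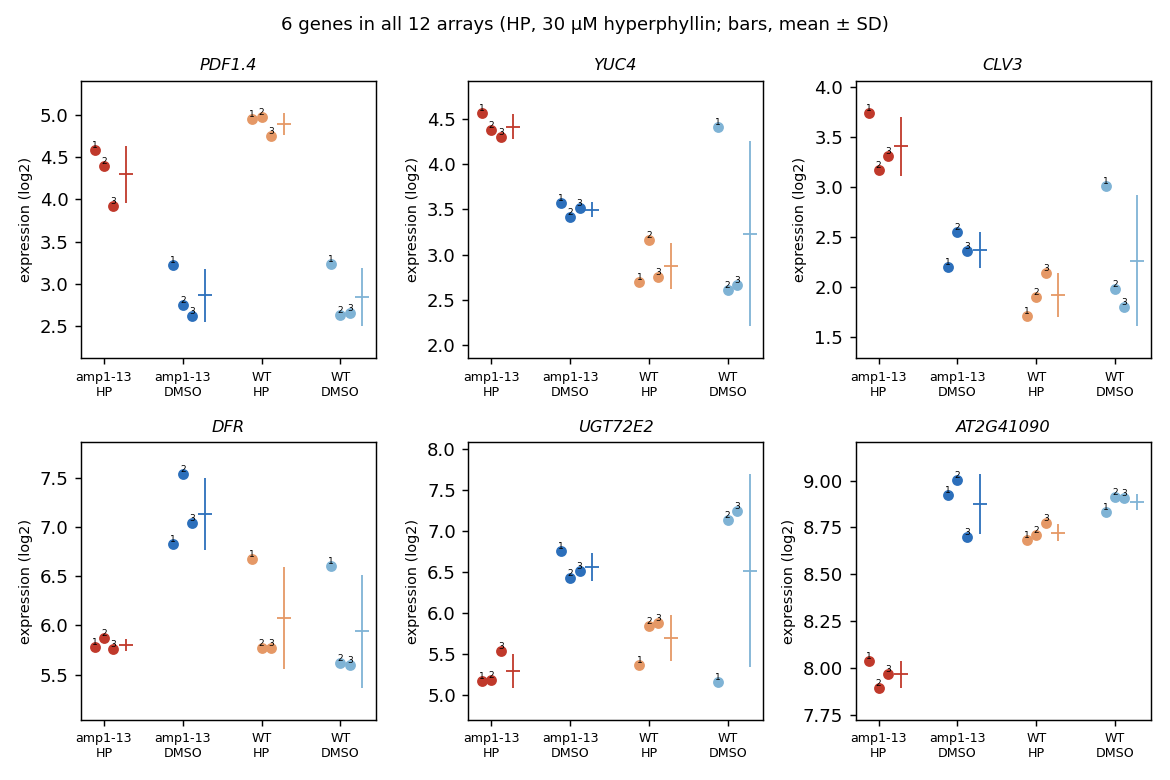
Log2 expression (y axis) of PDF1.4, YUC4, CLV3, DFR, UGT72E2 and AT2G41090 on all 12 arrays, by genotype and treatment (HP, 30 µM hyperphyllin; WT, wild type), with each array's replicate number and the mean ± SD of its 3 arrays. Array 1 of wild type with DMSO lies away from the other 2 of its group in PDF1.4, YUC4, CLV3, DFR and UGT72E2, and treated amp1-13 arrays alone are low in AT2G41090.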

How the data were processed

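RNA of whole seedlings was measured on Affymetrix AraGene-1_1-st arrays, 1 per sample. Expression was deposited on a log2 scale after the authors ran RMA (background correction, normalization between arrays and probe summary), as named in the submitters' processing notes; its version was not given in the sources used here, and scanner files were not used here. The number of arrays limits the precision. Probe sets with several genes (758) or no gene name (20904) were left out. Of those with 1 gene, 16697 matched a locus in the RefSeq gene table (TAIR10.1), used for names and neighbours only, and 49 did not. For a gene with several probe sets, the one with the highest mean was used.

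Groups came from the labels. limma 3.58.1 in R 4.3.3 (lmFit and eBayes, two-sided, 4 residual and 4.15 prior degrees of freedom) was tested on simulated data and fitted to the 6 amp1-13 arrays. Adjusted p values are Benjamini-Hochberg values over 16746 probe sets, and "rose" or "fell" means an adjusted p under 0.05. Wild type was fitted likewise, and the interaction on 12 arrays. Alternatives were the replicate block, other arrays, probe sets, filters, priors, weights and normalizations, and each array left out.

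Named genes are called genes up to 15 per direction by size (filled up with genes at an unadjusted p under 0.01 and separate groups), up to 4 genes with the smallest p from every list, and AMP1-related genes; other called genes and further glutaredoxins were named after their values were seen. Of 32 gene lists, 27 had at least 3 measured members, and the phosphate list had 0. Entries that had matched unintended genes were removed from 3 lists, and LAMP1 was added to another, once the values were available. Family membership of the locus codes rests on general knowledge. Members and lists were chosen with earlier results of these data known.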

Additional observations from a re-analysis of the deposited data

How the results depend on the processing

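No named gene was called with the opposite sign under any alternative. Against 36 called genes, the 6-array comparison gave 0 with the replicate block, 0 over all probe sets, 3 on all 12 arrays, 130 on 11 arrays (array 1 of the wild-type controls left out), 59 with array weights, 93 with an intensity trend, 67 above the median level, 14 after quantile normalization, 104 at an adjusted p under 0.1 (chosen after seeing the data) and 15 with at least 2-fold changes. It gave 27 after median centring, 36 with the robust prior and 38 with probe sets of several genes. Of the 36 genes, 33 were shared on 11 arrays, 36 with array weights, 35 with the trend and 26 above the median level. With each amp1-13 array left out the count lay between 0 and 8, and that of called list members (10) between 0 and 4. The wild-type count of 194 was 304 on 12 arrays, 108 with the replicate block, and between 0 and 2298 with an array left out. The interaction count of 0 was 283 with array weights, 0 with the replicate block, and between 0 and 464 with an array left out (464 without DMSO array 1 of wild type). Over the 36 called genes and the settings, 252 calls were kept and 350 were lost; 19 arose for named genes not called. Of 189 recomputed list medians, 5 moved by more than the spread. Same-numbered hyperphyllin and DMSO arrays of amp1-13 had correlations of deviations from their group means of -0.29, -0.18 and 0.12. Not every array correlated best with its own number. With 3 arrays per group these deviations depend on each other, so they can neither show nor exclude a pairing by number. The labels were not treated as pairs in the main fit. The block took degrees of freedom from 4 residual ones. Testing all probe sets more than doubled the tests and also estimated the prior from all of them. Why the counts moved was not tested. Signal over background is unknown, so depth limits could not be given.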

Other observations

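Enzyme families that share a symbol beginning were also counted in amp1-13. The families described here were picked after their values were seen, so no test is attached. Some members were already counted in the lists above, UGT72E2, UGT85A2 and GSTU25 under detoxification and SWEET1 under sugar and starch. The family counts are therefore not independent of the list counts. Of 51 UDP-glycosyltransferase (UGT) genes, UGT72E2 fell, 11 had lower means at an unadjusted p under 0.05 (21.6%, against 6.16% of all genes) and 2 had higher means (3.92%, against 4.67%), while the median of the family was 0.02 and 25 of the 51 means were lower. UGT87A2 had 7.81, 7.86 and 7.75 with hyperphyllin, against 8.25, 8.27 and 8.23 with DMSO (log2 difference -0.44 ± 0.09, SE, limma adjusted p = 0.113), and was at 0.30 in wild type, or 0.26 without DMSO array 1 of wild type, an array that stood apart from its group. UGT74B1, which glucosylates glucosinolate precursors, was at -0.42 in amp1-13 (adjusted p = 0.159) and at 0.29 in wild type, or 0.37 without that array. UGT85A2, UGT85A4 and UGT85A5 were at -0.40, -0.47 and -0.76; as close copies, they may share probes.

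Of 11 tau-class glutathione transferase (GSTU) genes, 4 had lower means at an unadjusted p under 0.05 (36.4%, against 6.16% of all genes). Higher means at that level were seen in 0. GSTU25 had 2.35, 1.85 and 2.33 with hyperphyllin, against 3.02, 2.97 and 2.78 with DMSO, and was at -0.75 in amp1-13 and -0.72 in wild type (adjusted p = 0.234), or -0.91 without that array (adjusted p = 0.0184). Of 14 SWEET sugar transporter genes, 3 had lower means at that level (21.4%, against 6.16% of all genes) and 0 higher. SWEET1 had 4.93, 4.74 and 5.13 with hyperphyllin, against 5.52, 5.37 and 5.64 with DMSO, and was at -0.58 in amp1-13 and 0.51 in wild type (adjusted p = 0.493), or 0.87 without that array (adjusted p = 0.00543). SWEET13 was at -0.42 in amp1-13 and -0.86 in wild type (adjusted p = 0.425), or -1.38 without that array (adjusted p = 0.00392). No member of the GSTU and SWEET families passed the test in amp1-13. Other families had more higher than lower means at an unadjusted p under 0.05. Higher at that level were 3 of 8 ALDH (37.5%), 3 of 9 XTH (33.3%) and 2 of 8 CHR genes (25.0%), against 4.67% of all genes. Lower were 1, 1 and 0.

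Of the 20904 probe sets without a gene name, 0 were called with limma when all probe sets were tested together (lowest adjusted p = 0.15), and 2150 (10.3%) had an unadjusted p under 0.05.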
